A study of Mus musculus with 28 samples.

Results

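The genes described are 10 genes that mark alveolar type 1 (AT1) cells, Hopx, Aqp5, Pdpn, Cav1, Rtkn2, Akap5, Clic5, Ahnak, Vegfa and Emp2, taken by symbol from the 23478 gene rows of each of 2 deposited count tables. All 10 were found in both tables and passed the filter on low counts in every comparison. They were measured by RNA-seq in 19 libraries of mouse lung cells that had been depleted of blood, endothelial and stromal cells with beads, selected for the epithelial surface protein EPCAM and labelled as alveolar type 2 (AT2) cells. Yap active mice carried floxed Stk3 and Stk4 alleles and SftpcCreert2 (6 RNA libraries), and their controls carried the floxed Stk3 and Stk4 alleles without Cre (4 libraries). Yap deleted mice carried floxed Yap and SftpcCreert2 (5 libraries), and their controls carried floxed Yap without Cre (4 libraries). Yap was activated or deleted at postnatal day 3 in the mice with Cre, and cells of every group were taken at postnatal day 14. Cre was driven by the promoter of Sftpc, an AT2 gene, so other EPCAM+ cells of the sort were not its direct target. AT1 cells formed from AT2 cells between these days could carry the changed alleles. Which cells of the sort carried them was not tested. The labels tie no library to an animal, so p-values reflect the spread between libraries, which may be technical.

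AT1 cells are the thin, broad cells that form most of the gas exchange surface of the lung, and AT2 cells are the cuboidal cells that make surfactant and can turn into AT1 cells. Yap is a transcriptional coactivator that is held in the cytoplasm by the Hippo kinases MST1 (Stk4) and MST2 (Stk3) and that binds DNA through TEAD factors. Of the 10 genes, Aqp5 encodes a water channel, Pdpn a membrane glycoprotein, Cav1 the coat protein of caveolae, Emp2 a membrane protein with 4 spans, Clic5 a chloride intracellular channel protein, Ahnak a giant scaffold protein under the cell membrane, Akap5 an anchor for protein kinase A, Hopx a homeodomain protein that does not bind DNA, and Vegfa the growth factor that AT1 cells supply to lung capillaries.

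Libraries of the Yap active table held 35.0 to 43.5 M counts, and from 31.9 to 42.9 M were held by those of the Yap deleted line. M stands for 1e6 counts. Levels are given as CPM, counts per M after TMM scaling within each table, and are not compared between genes or between tables. The AT2 marker Sftpc was read in every library, at 2073 CPM or more, while each of the 10 AT1 genes was read at 25.2 CPM or more. Stk3 and Stk4 lay at 30.6 to 35.5 CPM and 78.7 to 94.4 CPM in active libraries 2 to 6, against 49.8 to 54.2 CPM of Stk3 in active controls 1 to 3 and 103 to 120.3 CPM of Stk4 in all 4 controls. Active library 1 held 49.4 CPM of Stk3 and 124 CPM of Stk4. Yap1 lay at 78.8 to 142 CPM in the deleted libraries, against 118 to 211 CPM in the deleted controls. The ranges overlapped through deleted control 2, at 118 CPM, and deleted library 2, at 142 CPM. Deleted controls 1, 3 and 4 held 169 to 211 CPM of Yap1. In all, 3 libraries went against their labels in Esr1, whose receptor part the Cre protein carries. The library labelled Yap active 1 held 1.97 CPM of Esr1, the library labelled Yap active control 2 held 159 CPM and the library labelled Yap deleted control 2 held 86.3 CPM, where other Cre libraries held at least 212 CPM and other controls at most 3.93 CPM. The library labelled Yap active control 4 held 34.1 CPM of Stk3, within the range of active libraries 2 to 6. Its Stk4, at 120.3 CPM, was above those libraries, and its Esr1, at 0.966 CPM, was at the level of controls. Stk3 also varied where it was not floxed. In the Yap deleted line it lay at 39.9 and 37.1 CPM in controls 1 and 2. Controls 3 and 4 of that line held 22.3 and 19.8 CPM, and the deleted libraries 20.4 to 27.2 CPM. All libraries stayed in their labelled groups, and values without those in doubt are given beside the results.

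After Yap deletion, 9 of the 10 AT1 genes were lower than in the controls, as were 49.0% of all genes, and the median log2 fold change over the 10 was −0.76, where that of all genes tested was 0.01. None of the 10 passed the test, edgeR's quasi-likelihood test with Benjamini-Hochberg adjustment over all genes at 0.05, which called 1 of 15818 genes (0.00632%). At an unadjusted p under 0.05 stood 2 of the 10, Cav1 and Ahnak, against 15.3% of all genes (9.18% on the lower side). DESeq2 called these 2 genes as lower and no other of the 10, with 792 calls in all (5.01%). Fewer AT1 cells in a library and less of these RNAs per cell cannot be told apart in bulk libraries.

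Cav1 showed the clearest separation. It lay at 253, 219, 163, 157 and 192 CPM in deleted libraries 1 to 5, against 519, 415, 515 and 305 CPM in deleted controls 1 to 4. All 5 deleted libraries were below all 4 controls, a pattern shared by 1.19% of all genes. The log2 fold change was −1.17 ± 0.20 (SE), with an adjusted p of 0.204 by edgeR. DESeq2 gave −1.20 and an adjusted p of 5.9e-05.

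Ahnak lay at 786, 628, 705, 896 and 1252 CPM in the deleted libraries, against 2102, 1706, 1609 and 1449 CPM in their controls. The groups again did not overlap, and deleted library 5 came nearest to the controls. Its log2 fold change was −1.02 ± 0.23 (SE), with an adjusted p of 0.247 by edgeR, against an adjusted p of 0.00119 by DESeq2.

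**Figure D1:**
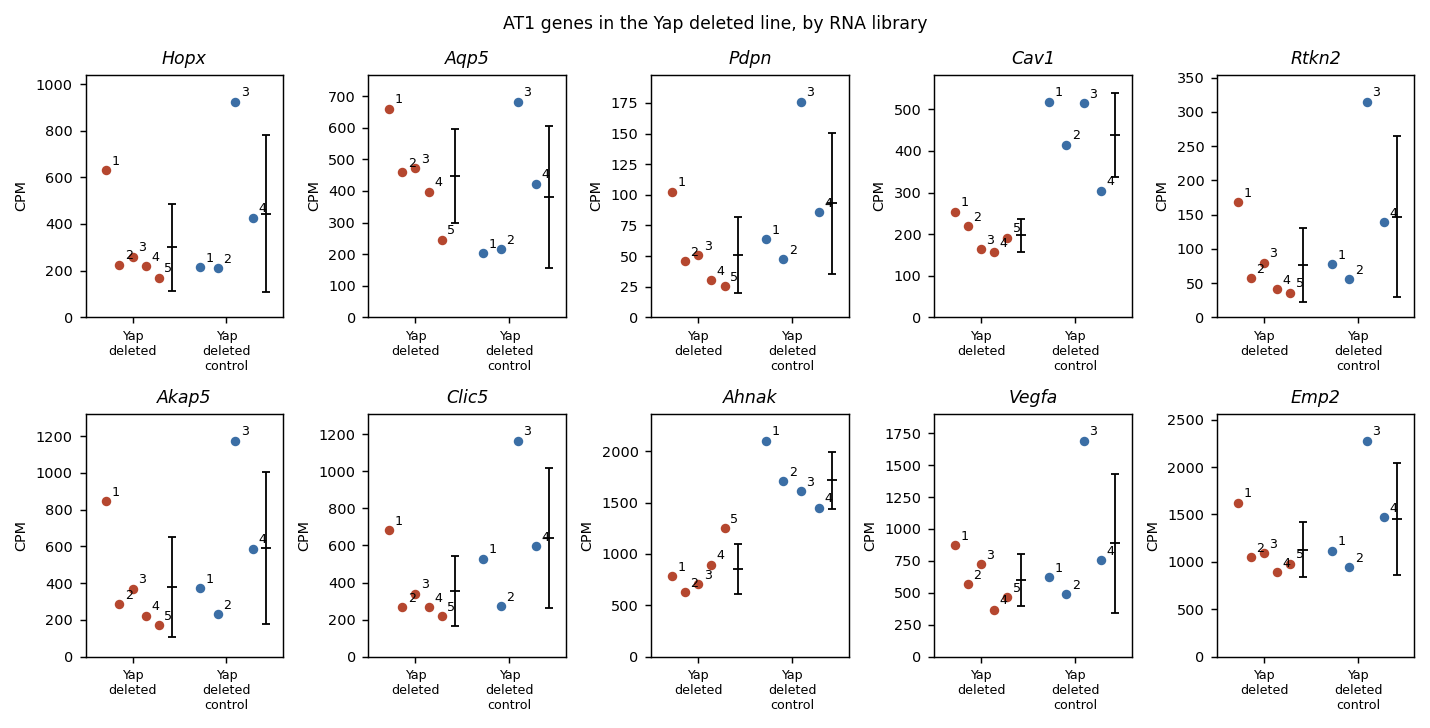
CPM of the 10 AT1 genes (vertical axes, each from 0) in the Yap deleted libraries (red) and their controls (blue), with replicate numbers beside the points and the mean ± SD at the right of each group. For Cav1 and Ahnak all deleted points lie below all control points, and for the other genes control 3 is the highest point, with deleted library 1 above controls 1, 2 and 4.

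Cav1 is also a major caveolar protein of endothelial cells, and endothelial transcripts differed between these libraries. The 20 endothelial genes of a marker list summed to 264 to 384 CPM in the deleted libraries, against 4219, 3407, 355 and 382 CPM in controls 1 to 4. Pecam1, the surface protein CD31 used for the depletion, was at 2.14 to 11.1 CPM in the deleted libraries and at 317, 243, 5.56 and 12.9 CPM in controls 1 to 4. Controls 1 and 2 also stood apart beyond these markers. The first principal component, with 62.3% of the variance, put them at 73.6 and 85.5 and the other libraries at −37.3 to −6.70. They are columns 8 and 9 of the deposited table, after all other libraries, and the labels name no batch. With controls 1 and 2 left out, the remaining controls held endothelial sums within the range of the deleted libraries, and the log2 fold changes were −1.09 ± 0.25 (SE) for Cav1 and −0.88 ± 0.26 (SE) for Ahnak, neither called by edgeR. The range of leukocyte list sums, over 14 genes, was 60.4 to 199 CPM in the deleted libraries and 152 to 1690 CPM in the controls, highest in control 2. Markers of other epithelial cells differed between the libraries too. Of 20 AT2 genes 19 were higher after deletion (51% of all genes), by a median log2 fold change of 0.66, with none called by edgeR. At an unadjusted p under 0.05 by edgeR stood 9 of the 20, against 15.3% of all genes. Their summed CPM was 66020 to 105235 in the deleted libraries, against 40772, 37797, 74296 and 119779 in controls 1 to 4. Sftpc alone lay at 2870, 2073, 28251.5, 24281.5 and 25983.9 CPM in deleted libraries 1 to 5. It lay at 10170, 7511, 30218.5 and 45722.2 CPM in controls 1 to 4, so deleted libraries 1 and 2 were below every control. Of the ciliated cell genes 9 of 9 were higher (median 0.60, none called by edgeR), where 51% of all genes were. Their sums were 1031 to 1918 CPM in the deleted libraries. Controls 1, 2 and 4 held 309.7, 231 and 1284 CPM, and control 3 held 1730 CPM. The 12 airway secretory genes summed to 20374 to 35260 CPM in the deleted libraries, against 9870 to 53601 CPM in the controls, highest in control 3. The part of these other cell types in the values of the 10 genes was not tested.

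**Figure D2:**
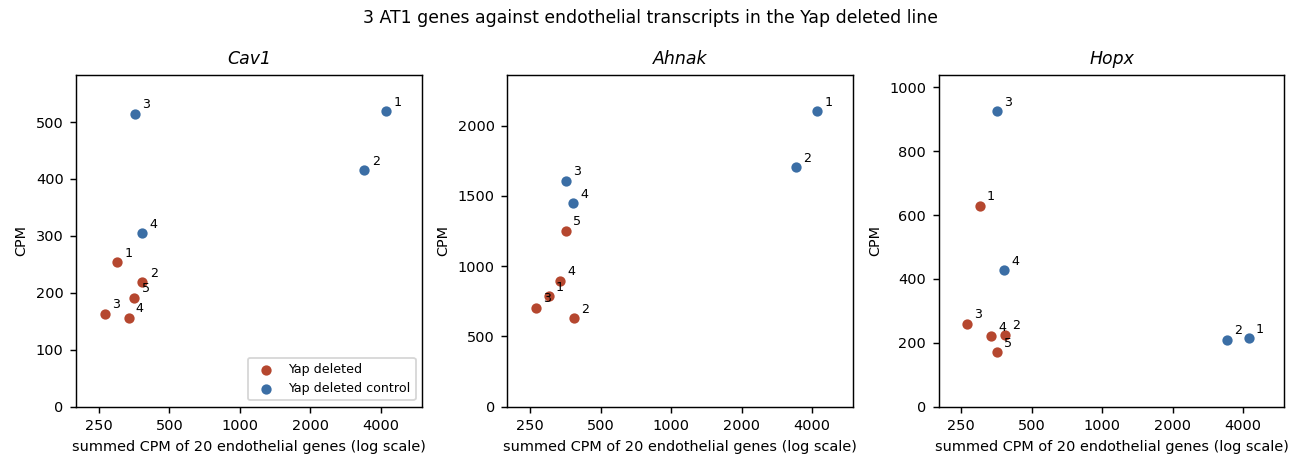
CPM of Cav1, Ahnak and Hopx (vertical axes) against the summed CPM of 20 endothelial genes (horizontal axes, log scale) in the Yap deleted libraries (red) and their controls (blue), numbered by replicate. Controls 1 and 2 stand apart at 3407 and 4219 CPM of endothelial sum, and control 3, at 355 CPM of endothelial sum, holds 515 CPM of Cav1 and 925 CPM of Hopx.

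Among the other membrane proteins, Pdpn lay at 103, 46.0, 50.7, 30.1 and 25.2 CPM in the deleted libraries, against 63.9, 47.3, 176 and 85.6 CPM in the controls. Clic5 lay at 683, 267, 339, 268 and 218 CPM in deleted libraries, against 528, 272, 1165 and 596 CPM in controls. In both genes the groups overlapped, and deleted library 1 was above 3 of the 4 controls. Emp2 lay at 1626, 1047, 1093, 888 and 982 CPM after deletion, against 1118, 944, 2278 and 1473 CPM in controls. The log2 fold changes were −0.88 ± 0.48 for Pdpn, −0.86 ± 0.45 for Clic5 and −0.38 ± 0.28 for Emp2 (SE), with edgeR adjusted p from 0.385 to 0.524. Aqp5 was the 1 gene of the 10 on the other side, at 661, 459, 472, 397 and 246 CPM in deleted libraries, against 203, 215, 683 and 422 CPM in controls. Its groups overlapped, and its log2 fold change was 0.22 ± 0.40 (SE) with an edgeR adjusted p of 0.783.

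The scaffold and signalling genes followed the same libraries. Akap5 lay at 845, 284, 369.7, 222 and 171 CPM in the deleted libraries, against 371, 232, 1175 and 588 CPM in the controls (log2 fold change −0.65 ± 0.56 SE). Rtkn2 lay at 168, 57.4, 79.8, 41.2 and 36.0 CPM after deletion, against 77.2, 55.8, 315 and 139 CPM in controls (−0.95 ± 0.59 SE). In neither gene did the groups separate. Hopx lay at 629.5, 225, 260.1, 219.7 and 170.2 CPM in deleted libraries, against 214, 209.5, 925 and 428 CPM in controls (log2 fold change −0.57 ± 0.53 SE). Vegfa lay at 872, 566, 725, 368 and 466 CPM in deleted libraries, against 619.9, 487, 1690.4 and 756 CPM in controls (−0.57 ± 0.39 SE). Adjusted p by edgeR ran from 0.451 to 0.595 over these 4 genes.

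The size of these differences depended on which control libraries entered. Deleted control 3 was the highest of the 9 libraries for 8 of the 10 genes, and control 1 was the highest for Cav1 and Ahnak. Without control 3 the median log2 fold change over the 10 genes was −0.19, with 8 lower (50.4% of all genes) and 2 higher, and Hopx stood at 0.05 ± 0.46 (SE). Without it Cav1 stood at −1.11 ± 0.22 and Ahnak at −1.07 ± 0.26 (SE). Without control 2, the library in doubt by its Esr1, 9 of the 10 were lower (7485 of all 15909 genes were), by a median of −0.97, and Aqp5 stood at 0.03 ± 0.40 (SE). Without controls 1 and 2, all 10 genes were lower (49.1% of all genes), by a median of −1.14, and 7 of them had an unadjusted p under 0.05, where 6.20% of all genes did. None was called by edgeR in any of these fits (1 call of 16073 genes, or 0.00622%, without controls 1 and 2).

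Apart from controls 1 and 2, most of the genes ranked the remaining 7 libraries of the Yap deleted table alike. Hopx, Pdpn, Rtkn2 and Akap5 gave the identical order, from control 3 at the top through deleted library 1, control 4, deleted libraries 3, 2 and 4 to deleted library 5. For 8 of the 10 genes control 3 led and deleted library 1 came next, so a deleted library outranked control 4. Cav1 and Ahnak were the exceptions, with both controls above every deleted library.

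In the Yap active line the 10 genes gave no common direction with all libraries. Of the 10, 6 were higher (49.4% of all genes were) and 4 lower than in the controls, with a median log2 fold change of 0.07. None was called, as none of the 15685 genes tested was (0%) by edgeR. At an unadjusted p under 0.05 stood 1981 of all genes (12.6%) and none of the 10, and DESeq2 called 18 genes (0.115%). Without active library 1, 7 of the 10 were lower (7916 of 15483 genes), by a median of −0.23, and without active library 1 and control 2, 8 of the 10 were higher (7829 of 15602 genes), by a median of 0.10. Without control 4, 9 were higher (7887 of 15913 genes), by a median of 0.10, and edgeR called none of the 10 in these fits. With all libraries, Aqp5 and Cav1 were the 2 genes furthest from 0, on opposite sides.

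Aqp5 lay between 369 and 1032 CPM in the 6 Yap active libraries (median 693), against 201, 294, 212 and 763 CPM in active controls 1 to 4. All active libraries were above controls 1 to 3, and control 4 was within their range. Its log2 fold change was 0.88 ± 0.41 (SE), with an edgeR adjusted p of 0.366. Without the library labelled control 4 it was 1.53 ± 0.31 (SE), with an adjusted p of 0.0658. Without active library 1 and control 2 it was 0.91 ± 0.46 (SE), with an edgeR adjusted p of 0.207. Control 4 was the lone control among the first 6 columns of the deposited table, within which Aqp5 stood at −0.03.

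Cav1 lay between 134 and 646 CPM in the Yap active libraries (median 169), against 346, 558, 364 and 260.0 CPM in the controls. Active library 1, at 646 CPM, was the highest of all 10, and the other 5 active libraries, at 134 to 196 CPM, were below every control. The log2 fold change was −0.67 ± 0.46 (SE; edgeR adjusted p = 0.417) with all libraries and −1.27 ± 0.22 (SE; edgeR adjusted p = 0.0543) without active library 1. With control 2, the highest control, left out as well, it was −1.02 ± 0.18 (SE, edgeR adjusted p = 0.122). Limma-voom with sample quality weights, which gives less weight to libraries that stand apart, called both Cav1 (−1.27) and Aqp5 (1.53). It called 8871 of the 15685 genes tested, so a call by it was shared by most genes.

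In the remaining genes the groups overlapped. Active library 1 held 2139 CPM of Ahnak, where the other active libraries held 656 to 997 CPM and the controls 923, 1232, 1016 and 1152 CPM. Hopx lay between 239 and 562 CPM in active libraries (median 321), against 246, 526, 122 and 393 CPM in controls. Emp2 ranged from 1278 to 1761 CPM in active libraries (median 1544), against 1071, 1789, 922 and 1617 CPM in controls. In these genes, as in those that follow, control 2 was the highest control and control 3 the lowest, or control 1 for Ahnak.

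Clic5 ranged from 304 to 1056 CPM in active libraries (median 465), against 396, 899, 246 and 642 CPM in controls. Akap5 ranged from 327 to 960.0 CPM (median 484), against 404, 761, 207 and 575 CPM in controls. Vegfa ranged from 391 to 1149.6 CPM in active libraries (median 563), against 575, 963, 304 and 690.4 CPM in controls. Each of the 3 genes was highest in active library 1 and lowest in control 3. Pdpn ranged from 59.6 to 158 CPM in active libraries (median 72.3), against 73.5, 138, 49.6 and 91.1 CPM in controls. Rtkn2 ranged from 56.8 to 279.7 CPM (median 95.7), against 102, 199, 36.5 and 119 CPM in controls. Fitted log2 fold changes of these 8 genes ran from −0.02 to 0.23, with edgeR adjusted p from 0.608 to 0.988.

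**Figure D3:**
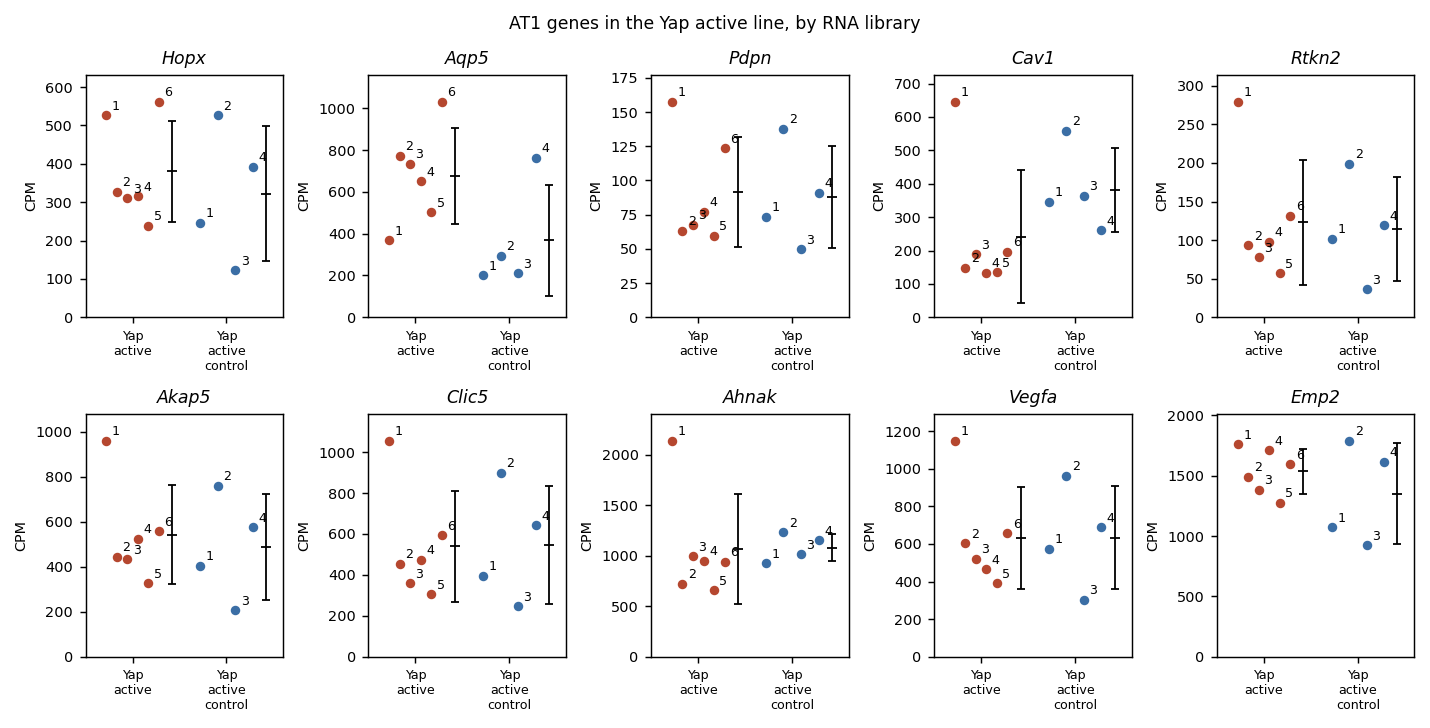
CPM of the 10 AT1 genes (vertical axes, each from 0) in the Yap active libraries (red) and their controls (blue), with replicate numbers beside the points and the mean ± SD at the right of each group. Active library 1 is the highest point for 7 of the 10 genes, Cav1 is below every control in active libraries 2 to 6, and Aqp5 of control 4, at 763 CPM, stands among the active libraries.

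The direction in this line differed between parts of the deposited table. The first principal component held 65.5% of the variance and parted the first 6 columns (active libraries 2 to 6 and control 4) from the last 4 (controls 1 to 3 and active library 1); the labels name no batch, and the parting was seen in these data. Within the first 6 columns all 10 genes (44.0% of all genes) were lower in active libraries than in the lone control, by a median log2 fold change of −0.34, led by Cav1 at −0.68 ± 0.23 and Clic5 at −0.54 ± 0.32 (SE). Within the last 4 columns all 10 (46.3% of all genes) were higher in the lone active library than in the 3 controls, by a median of 0.88, led by Rtkn2 at 1.31 ± 0.84 and Akap5 at 1.07 ± 0.69 (SE). That active library is the one whose Esr1 was at the level of the controls, and control 2, with 159 CPM of Esr1, is among the 3 controls. Each of these fits has 1 library in an arm, whose spread is taken from the other group.

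With a covariate for the 2 sets of columns, 9 of the 10 genes (50.2% of all genes) were higher in active libraries, by a median of 0.26. In that fit Aqp5 stood at 0.28 ± 0.24 and Cav1 at −0.09 ± 0.27 (SE). With that covariate and without active library 1 and control 2, all 10 (47.1% of all genes) were lower, by a median of −0.36. None of the 10 was called by edgeR in any of these fits. Summed endothelial CPM was 231 to 440 in active libraries and 276 to 769 in controls, highest in control 3. Pecam1 was at 0.795 to 14.6 CPM in active libraries and at 19.6, 4.63, 41.3 and 0.939 CPM in controls 1 to 4. With all libraries, 7 of 7 mesothelial genes (median log2 fold change −1.18) and 15 of 15 mesenchymal genes (−0.67) were lower in active libraries. Of all genes 50.6% were lower. At an unadjusted p under 0.05 by edgeR stood 5 and 2 of these, against 12.6% of all genes (5.98% on the lower side). All 20 AT2 genes (0.37) and 11 of 12 airway secretory genes (0.95) were higher, as were 49.4% of all genes. Of the secretory genes 8 stood at an unadjusted p under 0.05 by edgeR (12.6% of all genes), and edgeR called no gene of these lists. Summed mesothelial CPM was 122 to 823 in active libraries and 438 to 1032 in controls, and summed AT2 CPM was 55988 to 171491 in active libraries and 59117 to 173023 in controls. With the covariate, 17 of the 20 AT2 genes (median −0.15) and the 7 mesothelial genes (−0.34) were lower. Of the 15 mesenchymal genes 9 were higher (0.19), as were 50.2% of all genes. The part of these cell types and of endothelial transcripts in the values of the 10 genes here was not tested.

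**Figure D4:**
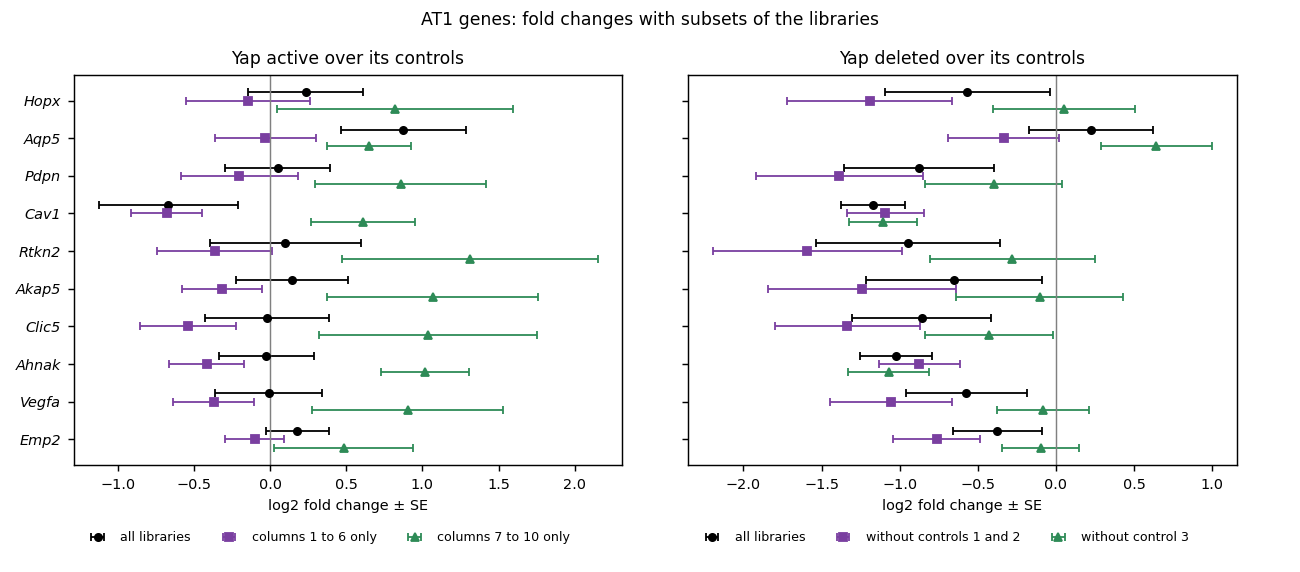
Log2 fold changes ± SE by edgeR (horizontal axes) of the 10 AT1 genes with all libraries (black circles) and with subsets of the libraries (purple squares and green triangles), for Yap active over its controls at the left and Yap deleted over its controls at the right. At the left all purple points (columns 1 to 6) are below 0 and all green points (columns 7 to 10) above it, and at the right Cav1 and Ahnak stay between −1.17 and −0.88 in the 3 fits while the other genes spread.

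The changes of the 2 lines were set against each other in 1 model, as the log2 fold change in the Yap active line minus that in the Yap deleted line. All 10 genes had a positive difference, with a median of 0.80, where the median of all 16308 genes was 0.02 and 52.3% of them were above 0. None was called (0 of all genes, 0%, by edgeR; DESeq2 called 17, or 0.104%). Ahnak had a difference of 0.998 ± 0.408 (SE), with an edgeR adjusted p of 0.755, and was the only one of the 10 at an unadjusted p under 0.05, where 6.47% of all genes were. Its own log2 fold changes were −0.02 in the Yap active line and −1.02 in the Yap deleted line. With all libraries and no covariate, Rtkn2 had the largest difference of the 10, 1.05 ± 0.83, and Cav1 the smallest, 0.50 ± 0.57 (SE), Cav1 being lower in both lines. With the covariate for the 2 sets of columns the difference was 1.10 ± 0.36 for Cav1 and 0.08 ± 0.51 (SE) for Aqp5, then the smallest, and the median of the 10 was 1.03, none called by edgeR. For Hopx the difference was 0.81 ± 0.68, for Pdpn 0.93 ± 0.63, for Clic5 0.84 ± 0.65 and for Akap5 0.80 ± 0.71 (SE). Aqp5, Vegfa and Emp2 differed by 0.66 ± 0.60, 0.57 ± 0.56 and 0.55 ± 0.35 (SE). The median difference was 0.30 without deleted control 3, 1.01 without deleted control 2 and 1.25 without deleted controls 1 and 2.

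**Figure D5:**
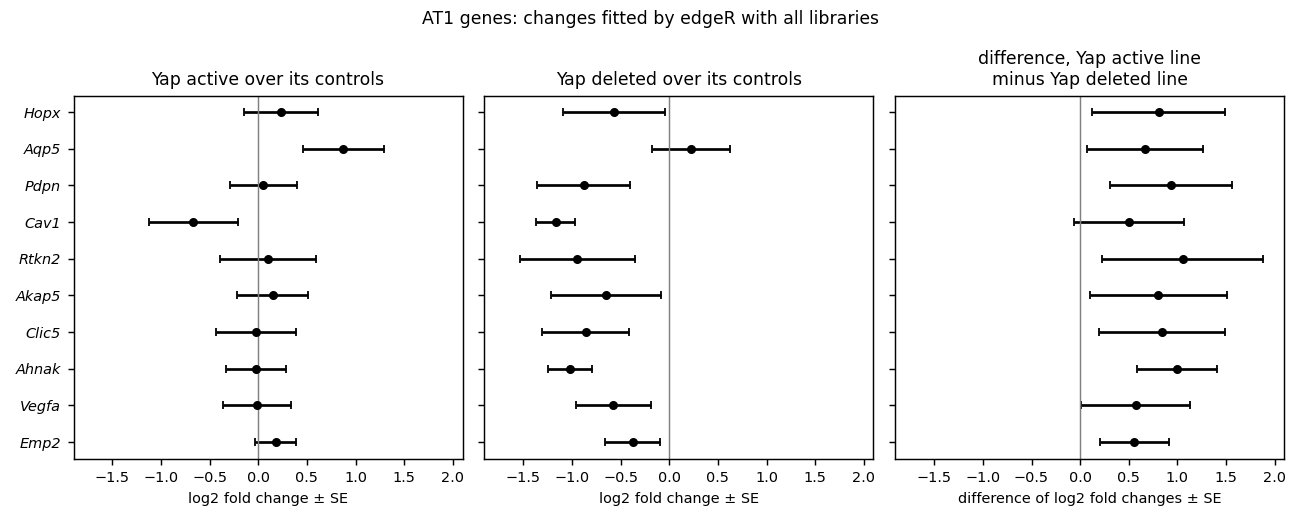
Log2 fold changes ± SE by edgeR (horizontal axes) of the 10 AT1 genes with all libraries, for Yap active over its controls, Yap deleted over its controls, and the difference of the first minus the second. The points of the left panel scatter about 0 between −0.67 and 0.88, 9 of 10 points of the middle panel are below 0, and all 10 of the right panel lie above it, between 0.50 and 1.05.

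A second list of 28 AT1 genes, which holds other surface, matrix and junction genes of these cells, was measured beside the 10. After Yap deletion 22 of the 28 were lower (49.0% of all genes), with a median log2 fold change of −0.36 and none called by edgeR, DESeq2 or limma-voom. The furthest below 0 were Pxdc1 (−1.03 ± 0.34), Tspan8, a tetraspanin (−1.01 ± 0.40), and Col4a3, a collagen chain of basement membranes (−0.90 ± 0.46 SE), while Sec14l3 (0.06), Bcam (0.05) and Cyp2b10 (0.04) were the furthest above. Without deleted control 3 the median of the 28 was 0.06, and without controls 1 and 2 it was −0.90. In the Yap active line 22 of the 28 were higher (49.4% of all genes), with a median of 0.24 and none called by edgeR or DESeq2. Limma-voom called 18 of the 28 (median 0.56), among 8871 of all 15685 genes tested. That direction turned between the sets of columns. Within the first 6 columns 24 of the 28 were lower (median −0.23, 44.0% of all genes), and within the last 4 28 of 28 were higher (0.60, 46.3% of all genes). With the covariate 25 were higher (0.17, 50.2% of all genes), and with it and without active library 1 and control 2 there were 24 lower (−0.25, 47.1% of all genes). Igfbp2, a binding protein of insulin-like growth factors (1.07 ± 0.58), and Icam1, an adhesion molecule (0.74 ± 0.31 SE), were the furthest above 0, and Timp3, an inhibitor of matrix proteases (−0.50), Limch1 (−0.44) and Pmp22 (−0.29) the furthest below. The difference between the lines was positive for 24 of the 28 (52.3% of all genes), with a median of 0.70 and none called by edgeR, DESeq2 or limma-voom. It was led by Pxdc1 (1.27 ± 0.50), the laminin chain gene Lama3 (1.22 ± 0.59) and Tspan8 (1.12 ± 0.54 SE), with Limch1 (−0.47), Sec14l3 (−0.31) and Cyp2b10 (−0.31) at the other end. Ager, the receptor gene often used to mark AT1 cells, was among the 28 and stood at 0.60 ± 0.35 in the Yap active line and −0.39 ± 0.55 (SE) in the Yap deleted line.

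Across all 19 libraries, with log2(CPM + 1) centred within each table, 7 of the 10 genes correlated more tightly with each other than with the other 3. Hopx, Pdpn, Rtkn2, Akap5, Clic5, Vegfa and Emp2 correlated pairwise at Pearson's r of 0.864 to 0.980, given as a description of libraries that share tables and depth. Pairs with Aqp5 ran from −0.49 to 0.60, pairs with Cav1 from −0.49 to 0.78 and pairs with Ahnak from −0.38 to 0.78, and the highest of the last 2 ranges was the pair of Cav1 with Ahnak. Over the same libraries r with Pecam1 was −0.83 for Aqp5, 0.65 for Cav1 and 0.62 for Ahnak, and ran from −0.43 to −0.11 for the set of 7. Within the first 6 columns of the Yap active table the set of 7 gave r of 0.549 to 0.969, and within the 7 libraries of the Yap deleted table other than controls 1 and 2 it gave 0.907 to 0.996. In those smaller sets of libraries the median r of pairs was 0.75 and 0.80 with Aqp5, 0.61 and 0.87 with Cav1 and 0.63 and 0.42 with Ahnak, against 0.85 and 0.98 among the 7. Of 11882 other genes, the 8 most like the mean of the 10 over the 19 libraries were Rasgrf2 (r = 0.972), Col4a3 (0.967), Sema3a (0.966), Col4a4 (0.962), Spock2 (0.957), Sh3rf2 (0.957), Trim16 (0.957) and Flrt3 (0.949). Of these, Col4a3, Col4a4, Spock2 and Flrt3 were also on the list of 28 AT1 genes.

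ATAC-seq, which reads open chromatin, had been carried out on 3 Yap active, 3 active control, 2 Yap deleted and 1 deleted control libraries. The deposited region lists name 6 regions, in mm10 coordinates as the authors' files give them, that the annotation ties to the 10 AT1 genes. In Yap active cells 3 of the 10 genes had an opened region (19.3% of all genes) and 1 a closed region (4.98% of all genes). After Yap deletion 1 of the 10 had an opened region (2.04% of all genes) and 1 a closed region (2.41%). Counts of 1 to 3 genes are given without a test.

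The region opened at Aqp5 in Yap active cells, chr15:99594836-99596332, began 7 bp past the end of the gene and was annotated to its transcription end. Its score was 40.1, above 47.4% of the 6017 regions in the list. The region opened near Hopx, chr5:77074538-77075452, was intergenic, 11.5 kb past the gene's end and 20.3 kb from the nearest start site. The one opened near Clic5, chr17:44300600-44301383, was intergenic and 20.4 kb past the gene's end. Both ranked low in their list, above 20.6% and 20.7% of regions by score. The region closed near Emp2 in Yap active cells, chr16:10271160-10271660, was intergenic and 10.1 kb past the end of that gene. Of these 4 genes, Aqp5, Hopx and Emp2 (0.18) had positive and Clic5 a negative log2 fold change in Yap active libraries, none called by edgeR, and within the first 6 columns all 4 were below 0. Limma-voom called Aqp5 alone of the 4 and put Clic5 at 0.10.

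After Yap deletion the opened region tied to Ahnak, chr19:8984057-8985317, was intergenic and 3.97 kb before the gene. Its score of 43.8 was above 93.0% of the 532 regions in that list, and it was the only 1 of the 6 in the higher-scoring 50% of its list. Ahnak RNA was lower in the same line, as given above. The region closed in the same cells and tied to Akap5, chr12:76303141-76304302, was 20.3 kb before that gene, in exon 20 of 28 of the neighbouring gene Mthfd1. Neither Cav1, Pdpn, Rtkn2 nor Vegfa had a region in any of the 4 lists.

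RefSeq promoter windows of GRCm38.p6, the assembly that mm10 names, covered 250 bases before to 50 after the start for 9 of the 10 genes, 12 windows in all. The 250 bases before the start of Cav1 and Ahnak are shown since these 2 genes separated the Yap deleted libraries from their controls, and those of Aqp5 and Hopx since each has a region opened in Yap active cells. Cav1 and Hopx each have 2 windows, and that of the outer start site is shown. Their inner windows hold none of the letters searched, and the opened Hopx region is nearest to the inner start site. All are written 5′ to 3′ on the strand of the gene. Capitals mark the letters searched on both strands, GGAATG for TEAD, TTGGC for the core of the NFI site, CCACCC and CCGCCC for KLF factors and TGANTCA for AP-1, or their reverse complements.
Cav1 (chr6:17306085-17306334, plus strand): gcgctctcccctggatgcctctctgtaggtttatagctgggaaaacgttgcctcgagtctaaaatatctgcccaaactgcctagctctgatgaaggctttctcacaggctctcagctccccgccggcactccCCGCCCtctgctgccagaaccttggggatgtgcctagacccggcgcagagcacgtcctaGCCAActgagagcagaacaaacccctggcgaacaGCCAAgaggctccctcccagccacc
Ahnak (chr19:8989034-8989283, plus strand): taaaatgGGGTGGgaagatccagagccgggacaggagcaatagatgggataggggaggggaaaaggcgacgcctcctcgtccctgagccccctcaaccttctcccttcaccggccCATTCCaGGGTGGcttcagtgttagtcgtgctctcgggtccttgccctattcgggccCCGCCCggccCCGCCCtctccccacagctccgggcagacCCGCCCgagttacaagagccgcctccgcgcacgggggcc
Aqp5 (chr15:99590778-99591027, plus strand): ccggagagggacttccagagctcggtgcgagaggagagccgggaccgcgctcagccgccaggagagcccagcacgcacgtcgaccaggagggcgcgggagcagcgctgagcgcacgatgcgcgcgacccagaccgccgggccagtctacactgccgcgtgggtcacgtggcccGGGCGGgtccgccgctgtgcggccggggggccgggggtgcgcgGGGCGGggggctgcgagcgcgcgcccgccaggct
Hopx (chr5:77115124-77115373, minus strand): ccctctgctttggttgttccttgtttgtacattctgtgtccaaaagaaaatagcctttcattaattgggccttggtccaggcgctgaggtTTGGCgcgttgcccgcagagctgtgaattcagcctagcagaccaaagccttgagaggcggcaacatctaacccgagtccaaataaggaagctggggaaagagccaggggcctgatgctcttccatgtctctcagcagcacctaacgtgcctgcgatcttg

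The TEAD letters were found in the 12 windows once, in that of Ahnak, where they stand as CATTCC, 1 base before GGGTGG, and 13.6% of all 20147 windows hold them. The NFI letters were found in 4 of the 12 windows, those of Cav1 (2 matches), Hopx, Pdpn and Akap5, against 48.1% of all windows. CCACCC was found in 4 of the 12 (Ahnak, Akap5, Pdpn and Vegfa), against 34.1% of all windows, and CCGCCC in 9 of the 12, of 8 genes, against 47.1% of all windows. Hopx was the 1 gene of the 9 with neither KLF sequence. The AP-1 letters, in 7.18% of all windows, were in none of the 12. GC content of the 250 bases before the start ran from 43.2% (Pdpn) to 78.4% (Aqp5), against a median of 56.0% over all windows. The matches describe these windows only, and whether they follow base content was not tested.

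The 4 deposited lists of broad peaks, 2 of Yap active cells and 2 of their controls, differed in size from 28418 to 345109 peaks, and at most 0.603% of a list had a q-value under 0.05. Promoter windows of 7 of the 9 genes met a peak of the first Yap active list, against 44.4% of 16647 genes, and those of Cav1 and Vegfa met one of the second, against 22.4%. Of the control lists, the first met a window of Hopx (5.25% of genes) and the second met none of the 9 (5.03%). Of the windows met by the first Yap active list, that at the inner start site of Hopx had the highest fold, 3.26, with a −log10 q of 1.11. Of the 4 Yap active regions, those of Aqp5 and Hopx overlapped a peak of the first Yap active list by at least 1 bp. The Hopx region also met a peak of the second control list at nearly the same fold, 3.28 against 3.30 in the Yap active list, and the closed Emp2 region met 1 of the first control list at a fold of 2.77. None of these peaks reached a q-value under 0.05.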

How the data were processed

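RNA values are whole-number read counts per gene, deposited by the authors as 1 table per line; Trim Galore, Bowtie2, Cufflinks, DESeq and HOMER and the build mm10 are named without versions per the submitters' processing notes, and the counting program is not stated there. Reads were paired, 150 bp long and from poly(A) libraries, per the labels' protocols. The authors' region lists give a score of unstated scale per region, annotated by HOMER per the file headers, which served here to rank regions inside each list. The authors' broad peaks give fold enrichment (a ratio) and −log10 q; which libraries entered each list is not stated. Dates had replaced 27 gene names in each set of counts, none of them of the 10 genes, and 0 columns of sample values were left unused.

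Counts were TMM-scaled, filtered with filterByExpr and tested two-sided in edgeR 4.0.16 (quasi-likelihood, robust), adjusted by Benjamini-Hochberg over all genes tested and called under 0.05. Log2 fold changes and SE are from that fit, and the scripts were tested on simulated data. The 10 genes and the other lists were chosen with earlier results of these data known. All 10 are named in each comparison; of the 28 other AT1 genes, those called, otherwise the 3 highest and 3 lowest log2 fold changes at a mean CPM of 4 or more; and the 8 genes that correlate best with the mean of the 10. Alternatives were RLE scaling, no filter, DESeq2 1.42.0, limma-voom with sample weights (limma 3.58.1), each library left out, doubtful libraries left out, the replicate number as a block, and other region and peak limits. Fits by column set were chosen after seeing the data. Libraries of the same group all differed by more than sampling noise, with a chi-square per gene of at least 53.1.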

Additional observations from a re-analysis of the deposited data

Results flagged for a closer look

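In 9 of 40 combinations of gene and group, the highest library stood apart from the others by Dixon's ratio, which chance gives in about 1 of 20. The library labelled Yap active 1, whose Esr1 was at 1.97 CPM, between the 0.966 and 3.18 CPM of active controls 4 and 3, stood apart for 5 genes, with 646 CPM of Cav1, 279.7 CPM of Rtkn2, 960.0 CPM of Akap5, 2139 CPM of Ahnak and 1149.6 CPM of Vegfa. Yap deleted library 1 stood apart for 3 genes, with 629.5 CPM of Hopx, 683 CPM of Clic5 and 1626 CPM of Emp2. The library labelled Yap active control 4, whose Stk3 level lies within that of Yap active libraries 2 to 6, stood apart for Aqp5 alone, with 763 CPM. Its Stk4, at 120.3 CPM, and its Esr1, at 0.966 CPM, went with its label. Flags of 1 library are not independent of each other.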

How the results depend on the processing

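With the 10 genes, no call arose under RLE scaling, without the filter, without any 1 library or with a replicate block; DESeq2 called 2 in the Yap deleted line and limma-voom 2 in the Yap active line. Replicate numbers could not be shown to pair the libraries. Correlations of deviations for replicates 1 to 4 were 0.61, 0.03, 0.11 and 0.55 in the Yap active table. They were −0.30, 0.52, 0.14 and 0.40 in the Yap deleted table. In the Yap active table, replicates 1 and 4 are those whose libraries share a set of columns, so these values cannot decide on pairing. The replicate block gave 0 calls over all genes in the Yap deleted line, against 1. Calls over all genes in the Yap active line, 0 in the report, were 18 by DESeq2, 8871 by limma-voom, 13 without active library 1 and control 2, 4 with the column covariate and without those, 2 in the first 6 columns, 6 in the last 4 and 0 to 2 with 1 library left out. In the Yap deleted line they were 792 by DESeq2, 0 by limma-voom and 0 to 4 with 1 library left out, and for the difference 17, 21 and 0 to 3. The median over the 10 genes in the Yap active line was 0.88 in the last 4 columns.

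Signs turned in these fits of the Yap active line. By limma-voom, Clic5 was 0.10 and Vegfa 0.10. With the replicate block Clic5 was 0.12, Ahnak 0.017 and Vegfa 0.13. Without active library 1 and control 2, Clic5 was 0.020 and Vegfa 0.0023. With the column covariate Clic5 was 0.18, Ahnak 0.24 and Vegfa 0.21. With it and without those libraries, Hopx was −0.16, Aqp5 −0.048, Pdpn −0.22, Rtkn2 −0.38, Akap5 −0.33 and Emp2 −0.12. In the first 6 columns Hopx was −0.15, Aqp5 −0.031, Pdpn −0.20, Rtkn2 −0.37, Akap5 −0.31 and Emp2 −0.10. In the last 4, Cav1 was 0.61, Clic5 1.04, Ahnak 1.02 and Vegfa 0.90. With 1 library left out, ranges were −0.36 to 0.082 for Ahnak, −0.11 to 0.45 for Akap5, −0.34 to 0.33 for Clic5, −0.037 to 0.58 for Hopx, −0.19 to 0.35 for Pdpn, −0.33 to 0.51 for Rtkn2 and −0.28 to 0.27 for Vegfa. In the Yap deleted line, Aqp5 was −0.34 without controls 1 and 2, and Hopx ran from −1.06 to 0.051 with 1 library left out. The difference for Cav1 was −0.11 by limma-voom and −0.10 to 0.75 with 1 library left out. The causes were not tested.

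Of the 6 regions, 5 remained within 50 kb of a start site and 1 in the higher-scoring 50% of its list. Of the 2 Yap active regions that met a Yap active peak, 0 did at an overlap of 50% of the region or with peaks of at least 5-fold.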
